A study of Mus musculus with 24 samples.

Results

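The renin-angiotensin-aldosterone system was followed through 9 genes of the deposited table, taken by gene symbol: Ren1, Agt, Ace, Mme, Enpep, Agtr1a, Nr3c2, Hsd11b2 and Sgk1. They are 9 of the 55487 genes listed, each symbol matched 1 row, and all 9 were among the 18339 genes with enough counts to test. The samples were kidneys of 24 male mice aged 15 weeks from a cross labelled Nbl1xCol4a5, all with X-linked Alport syndrome (XLAS), a hereditary kidney disease of the type IV collagen network, and all on the B6 background. The mice differed in Nbl1, which encodes a secreted antagonist of bone morphogenetic proteins: 13 were heterozygous (HET) and 11 wild type (WT). Batch 1, a name the labels give with no further meaning, held 6 HET and 6 WT mice, and batch 2 held 7 HET and 5 WT mice. The sources used here do not give the kind of Nbl1 allele or the Col4a5 mutation. Every group had the disease, so no value here compares a diseased with a healthy kidney.

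Renin, a protease released by juxtaglomerular cells of the afferent arteriole, cuts angiotensinogen to angiotensin I, which angiotensin converting enzyme turns into the vasoconstrictor angiotensin II. Angiotensin II acts through its type 1 receptor on vessels, mesangial cells and tubules, and drives the adrenal cortex to make aldosterone. Aldosterone acts on the mineralocorticoid receptor of the distal nephron to raise sodium uptake, and drugs that block the system are the standard treatment of Alport kidney disease.

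Expected counts summed to between 29551543 and 33020033 per library in batch 1 and between 36380502 and 50746817 in batch 2. Where 1 gene is compared between libraries its level is given in CPM, counts scaled to a common library size. Levels of different genes are compared in TPM, which also divides by gene length. The targeted gene Nbl1 averaged 5.32 ± 1.68 CPM in the 13 HET kidneys (SD) and 8.42 ± 3.15 CPM in the 11 WT kidneys (SD). Its edgeR log2 fold change was -0.67 (SE 0.17, unadjusted p = 0.000813, adjusted p = 0.997). In batch 1 alone it was -0.35 (SE 0.25, edgeR unadjusted p = 0.181). Nbl1 and its neighbour Htr6 went against the label in 3 libraries of batch 1, those labelled HET replicate 6, WT replicate 1 and WT replicate 2. Results for HET against WT therefore use the groups as labelled, and values without these 3 libraries stand beside those that lead. Of 10 proximal tubule, 8 distal tubule and collecting duct, 7 podocyte and 8 endothelial markers, all had enough counts to test, and of 7 adrenal gland markers 1 had. In bulk tissue, fewer cells of a type and less RNA per cell cannot be told apart.

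All members were well expressed. Within batch 1, Ace was the most abundant per length at 40.3 ± 5.47 TPM (SD, n = 12), followed by Enpep at 29.5, Hsd11b2 at 27.0, Mme at 24.8, Sgk1 at 17.3, Ren1 at 15.4, Agtr1a at 13.9, Agt at 13.01 and Nr3c2 at 5.24 TPM. In batch 2 the order was Ace at 101 ± 11.7 TPM (SD, n = 12), Enpep at 60.4, Mme at 54.9, Hsd11b2 at 51.5, Sgk1 at 40.6, Ren1 at 39.9, Agt at 30.7, Agtr1a at 27.0 and Nr3c2 at 5.46 TPM. The 3 membrane peptidases Ace, Enpep and Mme thus stood in the upper part of both orders and the mineralocorticoid receptor gene Nr3c2 stood last, still above 74.4% of all listed genes in batch 1 and 68.7% in batch 2. Neighbours in the order had overlapping ranges, with 3 exceptions: Ace above Enpep in batch 2, and the gene next above Nr3c2 in each batch. The median tested gene had 1.92 times the TPM in batch 2 that it had in batch 1, so TPM was compared within a batch only.

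**Figure D1:**
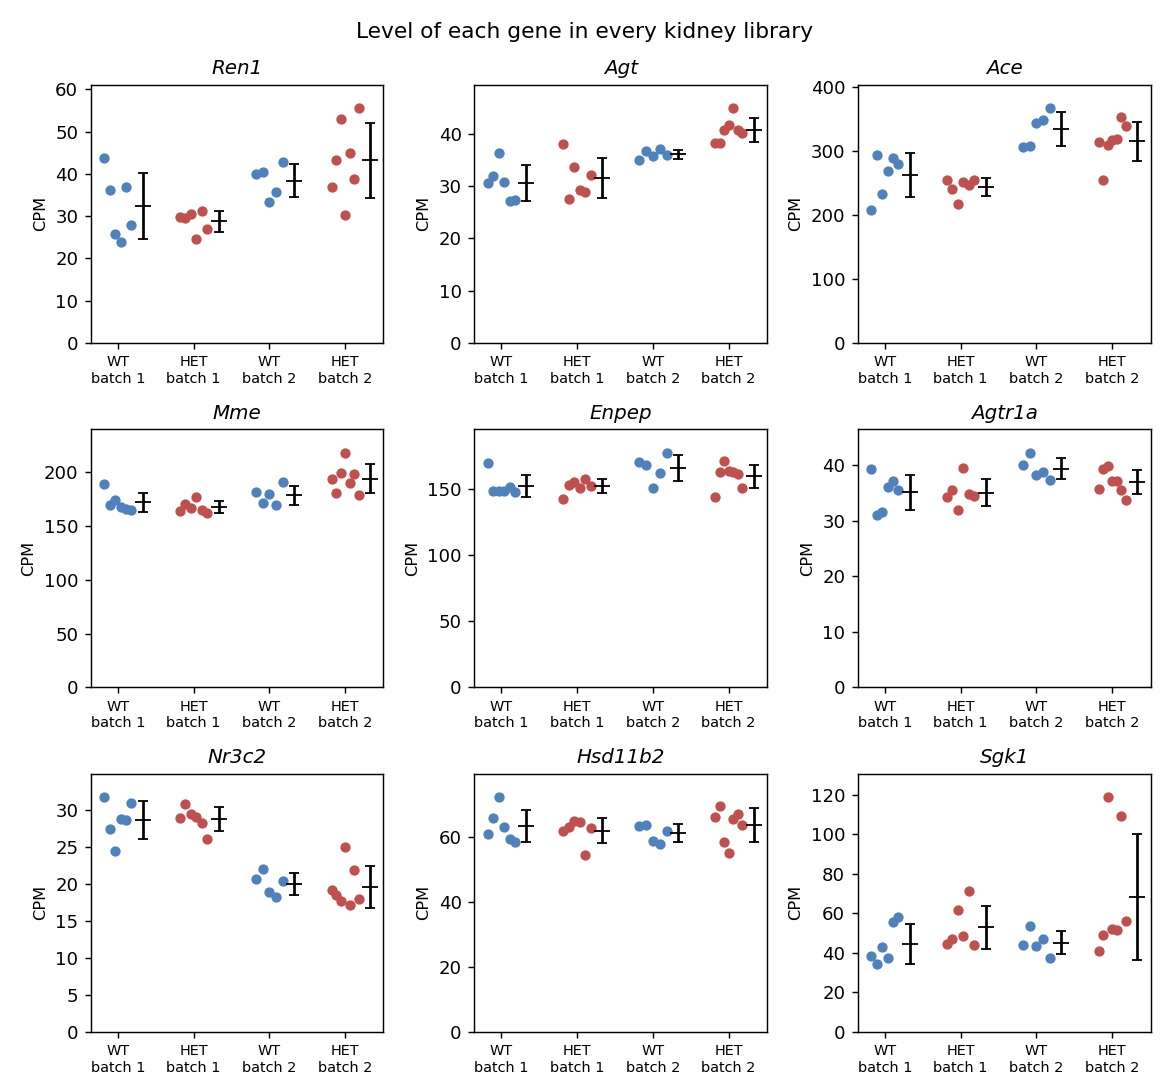
Level of each of the 9 genes in every library, in CPM on axes that start at 0, for WT and HET kidneys of batch 1 and batch 2. Points are libraries and bars show the mean and SD of a group. Agt in batch 2 is the only panel in which the HET and WT libraries of a batch do not overlap, and Sgk1 has 2 HET libraries far above the rest.

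The members differed widely in how much they varied between mice of the same genotype and batch. Sgk1 had the largest spread, an SD of 0.40 in log2 CPM, above that of 81.8% of tested genes, and Ren1 came next with 0.26. Mme and Enpep had the smallest, 0.075 and 0.077, and that of Mme was at or above that of only 10.3% of tested genes. The system thus held both some of the steadier tested genes and, in Sgk1, one that varied strongly from mouse to mouse. These ranks run over tested genes of any level, and no comparison was made with genes of like level. Between batch 2 and batch 1, 63.5% of all tested genes passed the threshold of an adjusted p under 0.05, 32.6% higher and 30.9% lower in batch 2. Of the 9 members 7 passed, 6 higher and 1 lower. Ren1 was higher in batch 2 by 0.43 on the log2 scale (edgeR adjusted p = 0.0013), Ace by 0.36, Agt by 0.31, Mme by 0.14, Agtr1a by 0.12 and Enpep by 0.09. Nr3c2 was lower, at 28.7 ± 2.05 CPM in batch 1 and 19.8 ± 2.28 CPM in batch 2 (SD, n = 12 each), a log2 difference of -0.54 (edgeR adjusted p = 4.39e-10). Its batches overlapped in a single library, HET replicate 10, at 25.0 CPM against a lowest value of 24.4 CPM in batch 1. What else differed between the batches cannot be told apart from them, and every comparison below holds batch fixed or lies within a batch.

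Over all mice, 0 of 9 members passed between the genotypes (edgeR's quasi-likelihood test, Benjamini-Hochberg adjustment over 18339 genes). Neither did any other gene, so the share called was 0%. DESeq2 and limma on TPM called 0 genes as well. At an unadjusted p under 0.05 stood 755 genes, 4.12% of those tested, and 2 members, Sgk1 and Agt. The median log2 fold change was 0.0017 over the 9 members and 0.0098 over all tested genes. The remaining 7 members had fitted HET levels between 93.7% of WT for Ace and 103% of WT for Mme. In batch 1 no gene passed (0%), with 522 genes (2.82%) and 0 members at an unadjusted p under 0.05. In batch 2 only 1 gene passed (0.00557%), which was no member, with 1486 genes (8.28%) and 1 member, Agt, at an unadjusted p under 0.05. DESeq2 called 1 gene in batch 1 and 27 in batch 2, again with 0 members. The difference of the genotype effect between batches, the interaction, passed for no gene (0%); 1504 genes (8.2%) and 1 member, Mme, had an unadjusted p under 0.05.

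**Figure D2:**
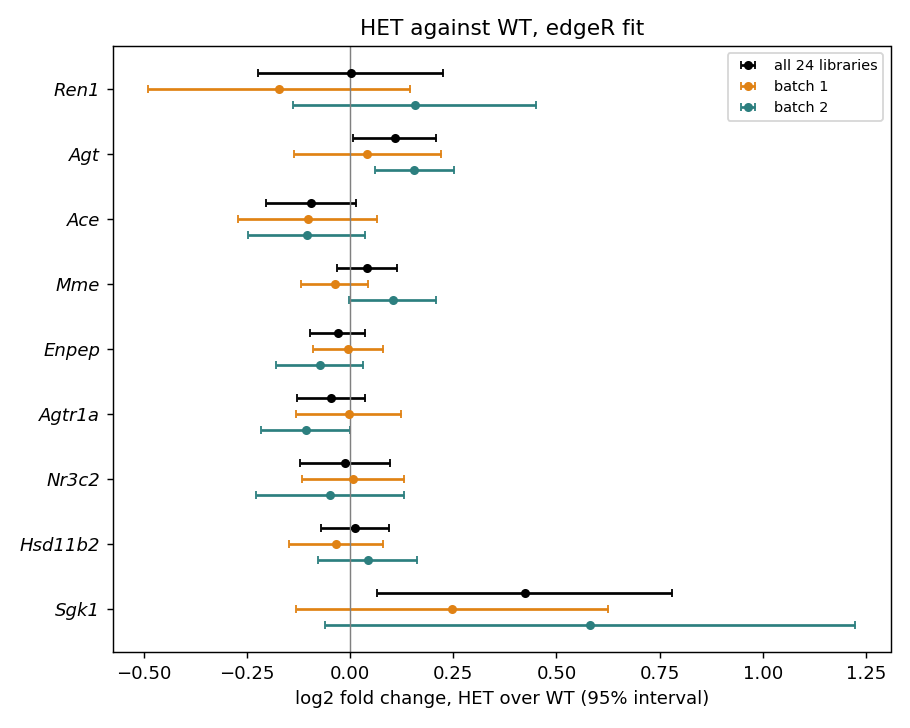
Log2 fold change of HET over WT for each gene from edgeR, over all 24 libraries and within each batch, with 95% intervals. Most points lie near 0; Sgk1 lies highest at 0.42 over all mice with a wide interval, and Agt in batch 2 has an interval above 0.

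Renin and its substrate come first in the cascade. Ren1 (ENSMUSG00000070645, chromosome 1, 133350510 to 133360325 on GRCm38, plus strand) encodes renin, and mice of the B6 strain carry only this renin gene. Agt (ENSMUSG00000031980, chromosome 8, 124556534 to 124569706, minus strand) encodes angiotensinogen, made mainly in liver and, in kidney, in the proximal tubule. Their promoter windows are shown because the products of this pair meet in the first step of the cascade. Each runs from 250 bases before to 50 after the start site, read 5′ to 3′ on the strand of the gene from RefSeq on GRCm38.p6. The windows lie at chr1:133350424-133350723 for Ren1 and chr8:124569657-124569956 for Agt. Capitals mark the TATA box letters TATAAA.
Ren1: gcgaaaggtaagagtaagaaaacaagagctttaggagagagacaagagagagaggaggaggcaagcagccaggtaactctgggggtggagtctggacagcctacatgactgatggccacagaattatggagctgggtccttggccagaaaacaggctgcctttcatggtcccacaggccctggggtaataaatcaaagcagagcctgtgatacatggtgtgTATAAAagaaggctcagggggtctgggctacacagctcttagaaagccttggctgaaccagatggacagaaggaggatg
Agt: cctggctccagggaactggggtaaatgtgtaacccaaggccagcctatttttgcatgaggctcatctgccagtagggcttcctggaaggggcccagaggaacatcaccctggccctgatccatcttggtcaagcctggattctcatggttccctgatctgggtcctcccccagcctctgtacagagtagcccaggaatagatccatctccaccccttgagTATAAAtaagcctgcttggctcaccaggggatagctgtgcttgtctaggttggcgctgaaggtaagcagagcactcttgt
The letters TATAAA, searched on the gene strand only, begin at position -29 from the start site in Ren1 and at -30 in Agt, and 8.32% of all 32851 promoter windows hold them somewhere. Of the 9 members, 7 matched a gene of the promoter table, and Agtr1a and Hsd11b2 did not.

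Ren1 had 24.4, 29.7 and 31.3 CPM as the lowest, median and highest value of the 6 HET libraries of batch 1, and 23.8, 32.0 and 43.8 CPM in the 6 WT libraries. In batch 2 the 7 HET libraries had 30.2, 43.2 and 55.5 CPM, and the 5 WT libraries had 39.9, 40.5, 33.3, 35.6 and 42.7 CPM. The groups overlapped in both batches, and the highest batch 1 library was WT replicate 1, which went against its label. The SD in CPM was largest in HET kidneys of batch 2, at 8.92 with a mean of 43.2. In WT kidneys of batch 1 the SD was 7.82 with a mean of 32.4. Relative to the mean, the spread was thus not larger in HET kidneys of batch 2 than in those. The log2 fold change was -0.17 in batch 1 (exact two-sided permutation p = 0.374) and 0.16 in batch 2 (exact two-sided permutation p = 0.337), with an interaction of 0.34 (edgeR adjusted p = 0.658). Over all mice HET kidneys held 100.1% of the WT level (95% interval 85.7% to 117%), so differences within that interval were not detectable with these mice. Without the 3 libraries against their labels the log2 difference was 0.10 (unadjusted p = 0.33, edgeR). The level of Ren1 also had no detectable slope on the collagen score described below (0.08, SE 0.30, edgeR adjusted p = 0.935). Of the 16 genes listed for renin cells and renin release, 15 were tested and 0 were called for HET against WT. The smallest p in that list was that of Gja5, a gap junction gene of renin cells, with a log2 fold change of -0.12 (adjusted p = 0.997, edgeR).

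Agt had a fitted level a little above WT in HET kidneys, mostly from batch 2, and it did not pass the threshold. There the lowest, median and highest of the 7 HET libraries were 38.2, 40.8 and 44.9 CPM, while the 5 WT libraries had 35.0, 36.8, 35.8, 37.2 and 35.9 CPM. Every HET library of batch 2 was thus above every WT library. That held for 101 of the 18339 tested genes in either direction, 0.551%, and for 70 with HET higher, 0.382%. The log2 fold change in batch 2 was 0.16 (SE 0.05; edgeR unadjusted p = 0.00322, adjusted p = 0.563), and the exact two-sided permutation p was 0.00253. In batch 1 the HET libraries had 27.6, 30.7 and 38.0 CPM as lowest, median and highest and the WT libraries 27.1, 30.7 and 36.4 CPM. These groups overlapped almost fully (16 genes, 0.0872%, and 0 members did not overlap in batch 1), with a log2 fold change of 0.04 (exact two-sided permutation p = 0.667). The difference between the batches was itself not past the threshold (interaction 0.13, SE 0.10, edgeR adjusted p = 0.717). Over all mice HET kidneys held 108% of the WT level (95% interval 100.5% to 116%; edgeR adjusted p = 0.997; permutation p = 0.056), and 10 of 13 HET libraries were above the WT median of their batch. As a log2 fold change this was 0.11, and it was 0.11 without the 3 libraries against their labels, and between 0.070 (without HET replicate 1) and 0.13 (without HET replicate 2) with 1 library left out. The difference in batch 2 depended on scaling: as TPM the groups overlapped, with 27.7 to 35.7 TPM in HET and 27.9 to 33.2 TPM in WT, and a log2 fold change of 0.0045. The median gene there was at -0.11, which left Agt at 0.12 above it.

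Ace, Mme and Enpep encode peptidases of the proximal tubule brush border; Ace is also made by endothelium. Ace (ENSMUSG00000020681, chromosome 11, 105967945 to 105989964, plus strand) forms angiotensin II. Mme (ENSMUSG00000027820, chromosome 3, 63241537 to 63386030, plus strand) encodes neprilysin, which degrades natriuretic peptides and cuts angiotensin I to a vasodilator peptide. Enpep (ENSMUSG00000028024, chromosome 3, 129269175 to 129332720, minus strand) encodes aminopeptidase A, which turns angiotensin II into angiotensin III. An antisense gene, Gm11651, overlaps Ace, and had a mean count of 0.46 beside at least 6767 counts of Ace per library. The sources used here do not give the strand setting of the counting.

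Ace had a fitted level a little below WT in HET kidneys, a difference that did not pass. The lowest, median and highest values in batch 1 were 217, 249 and 254 CPM in HET and 207, 274 and 294 CPM in WT. In batch 2 they were 254, 317 and 352 CPM in HET, against 305, 307, 344, 348 and 366 CPM in the 5 WT libraries. No HET library exceeded the highest WT library of its batch, yet the ranges overlapped in both. The log2 fold change was -0.09 over all mice (SE 0.05, edgeR adjusted p = 0.997), -0.10 in batch 1 and -0.10 in batch 2, and -0.13 without the 3 libraries against their labels (unadjusted p = 0.0149).

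Mme showed small differences of opposite sign in the batches, and these signs depended on the libraries or the scale used. In batch 1 it ranged from 162 to 177 CPM in HET (median 166) and from 165 to 189 CPM in WT (median 169). In batch 2 the HET libraries had 179, 194 and 218 CPM as lowest, median and highest, and the WT libraries had 181, 171, 180.3, 169 and 191 CPM. Of the 7 HET libraries of batch 2, 4 were above every WT library, and the groups overlapped. The log2 fold change was -0.04 in batch 1 and 0.10 in batch 2 (edgeR adjusted p = 0.604; exact two-sided permutation p = 0.0429), and the interaction was 0.16 (SE 0.06; edgeR unadjusted p = 0.0221, adjusted p = 0.576). As TPM the batch 2 difference changed sign to -0.048, which lay 0.065 above the median gene on that scale. The batch 1 difference of Mme was -0.0080 without WT replicate 1, and it turned positive without the 3 libraries against their labels. It turned positive on TPM as well, to 0.0504 with a pseudocount of 0.1. Enpep differed little: HET kidneys averaged 155.9 ± 8.21 CPM (SD, n = 13), WT kidneys 158 ± 11.3 CPM (SD, n = 11), and the fitted ratio was 98.0% (95% interval 93.6% to 103%).

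Among 14 other genes of angiotensin peptidases and processing, 12 were tested and 0 were called.

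Agtr1a (ENSMUSG00000049115, chromosome 13, 30336441 to 30382867, plus strand) encodes the main type 1 angiotensin II receptor of mouse kidney. Its paralog Agtr1b held 0 to 7 counts per library, so reads shared between them could matter little. Gm48161, annotated as a sense intronic transcript on the same strand inside Agtr1a, averaged 3383.71 counts, above Agtr1a itself, so reads of unspliced Agtr1a RNA and of Gm48161 cannot be told apart there. Agtr1a had 31.9, 34.6 and 39.4 CPM as lowest, median and highest in HET of batch 1, and 31.1, 35.8 and 39.2 CPM in WT. In batch 2 the HET libraries had 33.7, 37.1 and 39.9 CPM and the WT libraries 40.0, 42.2, 38.3, 38.8 and 37.3 CPM. Of the 7 HET libraries of batch 2, 5 were below every WT library, though the groups overlapped, and in batch 1 they covered the same range. The log2 fold change was -0.05 over all mice, -0.0030 in batch 1, and -0.11 in batch 2 (edgeR unadjusted p = 0.0504, adjusted p = 0.603; exact two-sided permutation p = 0.077). Agtr1a and Agt also varied with adipose genes, in opposite directions. Over the 24 libraries, with group means removed, Agtr1a correlated with a score of 7 adipose genes (Pearson r = 0.556, permutation p = 0.017; Spearman rho = 0.587, permutation p = 0.0083; r = 0.499 without the libraries at the extremes, WT replicates 1 and 6; 0.624 in batch 1 and 0.387 in batch 2). Agt went the other way (r = -0.507, permutation p = 0.0449; rho = -0.49, permutation p = 0.0414; r = -0.489 without the same libraries; -0.523 and -0.474 by batch). The summed adipose markers ran from 58.7 to 297 CPM in batch 1 and from 105 to 367 CPM in batch 2, and none of the 7 passed between genotypes. Their fitted HET level was below WT for all 7 in batch 2 (median log2 fold change -0.56) and above it for all 6 tested in batch 1 (median 0.15). Slopes on this score did not pass for either gene (0.04 for Agtr1a, edgeR adjusted p = 0.242; -0.05 for Agt, edgeR adjusted p = 0.241), where 1.01% of genes did. With the endothelial score Agtr1a also had a positive r, 0.535 (permutation p = 0.035), at 0.705 in batch 1 and 0.0677 in batch 2. Agt had a negative r there, -0.462 (permutation p = 0.0614), which went to -0.125 without WT replicates 5 and 3. The part of adipose or endothelial RNA in the Agt and Agtr1a differences was not tested. In the list of 8 receptor and adaptor genes, 6 were tested and 0 were called for HET against WT. Mas1, the receptor of the vasodilator angiotensin peptides, had the smallest p (log2 fold change -0.30, adjusted p = 0.997, edgeR).

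The aldosterone arm of the system was represented by a receptor, the enzyme that guards it and a target. Nr3c2 (ENSMUSG00000031618, chromosome 8, 76899442 to 77245012, plus strand) encodes the mineralocorticoid receptor. Hsd11b2 (ENSMUSG00000031891, chromosome 8, 105518755 to 105523988, plus strand) encodes the enzyme that inactivates corticosterone in aldosterone-sensitive cells, which leaves the receptor to aldosterone. Both had nearly the same level in the 2 genotypes. In batch 1 Nr3c2 averaged 28.8 ± 1.56 CPM in 6 HET and 28.6 ± 2.60 CPM in 6 WT kidneys (SD), and in batch 2 it averaged 19.6 ± 2.83 CPM in 7 HET and 20.03 ± 1.48 CPM in 5 WT kidneys (SD). The genotypes overlapped in each batch, and the fitted HET level was 99.2% of WT (95% interval 92.0% to 107%). Hsd11b2 averaged 62.9 ± 4.50 CPM over the HET kidneys (SD, n = 13) and 62.4 ± 4.14 CPM over the WT kidneys (SD, n = 11), with a fitted ratio of 100.8% (95% interval 95.2% to 107%). Of all members, Hsd11b2 was also the only one whose level did not move between the batches by more than 0.01 on the log2 scale. Of 6 genes of aldosterone synthesis, 5 had too few counts to test, with at most 1 count of Cyp11b1 and 2 of Cyp11b2, the last enzymes of the adrenal pathways, in a library. The sixth, Star, which encodes a carrier of cholesterol into mitochondria, had 30 to 67 counts and a mean of 1.21 CPM.

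Sgk1 (ENSMUSG00000019970, chromosome 10, 21882184 to 21999903, plus strand) encodes a kinase that aldosterone and glucocorticoids induce and that keeps the epithelial sodium channel at the cell surface. It had the largest HET against WT difference of the 9 genes, and a few HET kidneys stood far above the others. In batch 1 the lowest, median and highest values were 44.0, 47.7 and 71.0 CPM in HET and 34.4, 40.6 and 57.9 CPM in WT. In batch 2 they were 40.9, 51.9 and 119 CPM in HET, and the WT libraries had 43.8, 53.6, 43.4, 46.8 and 37.4 CPM. The highest libraries were HET replicates 9 and 12 of batch 2, at 119 and 109 CPM, followed by HET replicates 5 and 3 of batch 1, at 71.0 and 61.7 CPM. The groups overlapped in both batches, yet 12 of 13 HET libraries were above the WT median of their batch.

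Over all mice HET kidneys averaged 61.1 ± 24.8 CPM (SD, n = 13) and WT kidneys 44.7 ± 7.95 CPM (SD, n = 11). The fitted ratio was 134% (95% interval 105% to 172%), a log2 fold change of 0.42 (SE 0.17; edgeR unadjusted p = 0.0224, adjusted p = 0.997). Permuting the genotypes inside each batch gave p = 0.0295, two-sided. The log2 fold change was 0.25 in batch 1 (exact two-sided permutation p = 0.171) and 0.58 in batch 2 (exact two-sided permutation p = 0.12). It was 0.33 without HET replicate 9, 0.34 without HET replicate 12 and 0.40 without the 3 libraries against their labels, and in batch 1 it fell to 0.15 without HET replicate 5. Sgk1 thus did not pass the threshold over all genes in any of these.

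The 2 kidneys highest in Sgk1 were also high in Per1 and Tsc22d3. Of the 14 genes listed as aldosterone and glucocorticoid targets and receptor partners, Per1, a clock gene that glucocorticoids and aldosterone induce, followed Sgk1 most closely. With group means removed, their log2 levels had a Pearson r of 0.782 over 24 libraries, which put Per1 in place 14 among 15359 genes ranked by likeness to Sgk1. Tsc22d3, which encodes the glucocorticoid-induced leucine zipper, came next with r = 0.75 in place 28, then Klf9 with 0.651 in place 172 and Zbtb16 with 0.643 in place 198. These were singled out after their values were seen. The other 10 ran from -0.276 for Edn1 to 0.574 for Usp2, and included Fkbp5 at 0.44. These correlations are a description and share the libraries and their scaling.

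Per1 was highest in the libraries HET replicate 5 at 62.6 CPM, HET replicate 12 at 58.1 CPM and HET replicate 9 at 44.7 CPM, above a median of 17.5 CPM over all libraries. Tsc22d3 was highest in HET replicates 12 and 9, at 42.7 and 42.5 CPM, against a median of 22.4 CPM. The same 2 kidneys of batch 2 therefore led in Sgk1 and Tsc22d3, and Per1 led in them and in HET replicate 5. HET replicate 3, next after these in Sgk1, had 20.8 CPM of Per1 and 24.09 CPM of Tsc22d3, near those medians. For HET against WT the fitted log2 difference of Per1 was 0.67 (SE 0.33, edgeR adjusted p = 0.997), 0.30 in batch 1 and 1.04 in batch 2, and that of Tsc22d3 was 0.29 (adjusted p = 0.997). None of the 14 genes of the list was called, and 10 of the 14 had a fitted HET level above WT, beside 10319 of 18339 genes in all.

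By likeness over all genes, the 5 closest to Sgk1 were S1pr1 (r = 0.861), Itprip (0.819), Nedd9 (0.815), Ddit4l (0.809) and Gm12840 (0.807). The Sgk1 promoter is shown because of its steroid receptor letters. RefSeq gives this gene several start sites, and the window printed, chr10:21993640-21993939 on the plus strand of GRCm38.p6, was picked as the one with the most matches. Capitals mark AGAACA on either strand (TGTTCT when read on the other strand), an arm of the paired site that steroid receptors bind, and CACGTG, an E box letter run.
Sgk1: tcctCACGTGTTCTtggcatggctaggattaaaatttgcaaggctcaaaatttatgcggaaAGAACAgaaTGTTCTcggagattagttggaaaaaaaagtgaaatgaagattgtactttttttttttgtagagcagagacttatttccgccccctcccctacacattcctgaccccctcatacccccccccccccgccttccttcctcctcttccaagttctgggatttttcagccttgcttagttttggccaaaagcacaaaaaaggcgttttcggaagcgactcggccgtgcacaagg
AGAACA begins at position -189 from the start site and its reverse at -180, so that they face each other across 3 bases. A further reverse match begins at -242 and overlaps CACGTG, which begins at -246. At least 1 AGAACA on either strand was in 19% of the 32851 windows, and CACGTG was in 7.15%. Of the 15 windows of members, 3 held AGAACA, all of Sgk1. The shares are of single windows, and none was computed for a window picked for its matches or for the facing pair. The further letters searched, on both strands, were TGACG, held by 20.8% of windows, TGACGTCA, which contains it, held by 1.79%, and ACCGGAAG, held by 2.3%; no printed window has them. The matches describe letters only, and nothing was measured at them.

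Sgk1 also varied with the immediate early genes, which respond quickly to stimuli and to tissue handling. Its Pearson r with the mean log2 CPM of 9 immediate early genes was 0.512 with group means removed (permutation p = 0.00328; Spearman rho = 0.435, permutation p = 0.0186), 0.702 in batch 1 and 0.553 in batch 2, and 0.396 without HET replicate 5 and WT replicate 6, which lay farthest out. The slope of Sgk1 on that score was 0.18 (SE 0.07, edgeR adjusted p = 0.317), where 0.976% of genes passed. All 9 immediate early genes had a fitted HET level above WT, with a median log2 fold change of 0.91 and none past the threshold. Their summed level ran from 43.4 to 864 CPM in HET kidneys and from 30.0 to 355 CPM in WT kidneys of batch 1, and from 51.7 to 180.0 CPM and 39.7 to 75.7 CPM in batch 2. HET replicate 5 had the highest immediate early score and HET replicate 12 the highest of batch 2, whereas HET replicate 9, the library highest in Sgk1, had a score of 2.40 against a batch median of 2.18. Sgk1 correlated too with the score of 7 podocyte markers (r = 0.658, permutation p = 0.00853; rho = 0.506, permutation p = 0.0246; 0.502 without HET replicate 12 and WT replicate 5). That relation was 0.882 in batch 2 and 0.147 in batch 1, and the podocyte score spanned only 1.27-fold and 1.17-fold there. The slope on the podocyte score had an edgeR adjusted p of 0.486, where 0.00545% of genes passed. Ace followed the immediate early score as well (r = 0.471, permutation p = 0.0173; rho = 0.504, permutation p = 0.0113; 0.551 without the outlying libraries; 0.443 and 0.687 by batch; slope 0.06, edgeR adjusted p = 0.321). Hsd11b2 and Agt went the other way on the immediate early score. For Hsd11b2 r was -0.476 (permutation p = 0.026), at -0.635 and -0.204 by batch and -0.219 without the outlying libraries. For Agt it was -0.471 (permutation p = 0.0952), at -0.568 and 0.177 by batch. The part of the immediate early and podocyte scores in the Sgk1 difference was not tested.

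**Figure D3:**
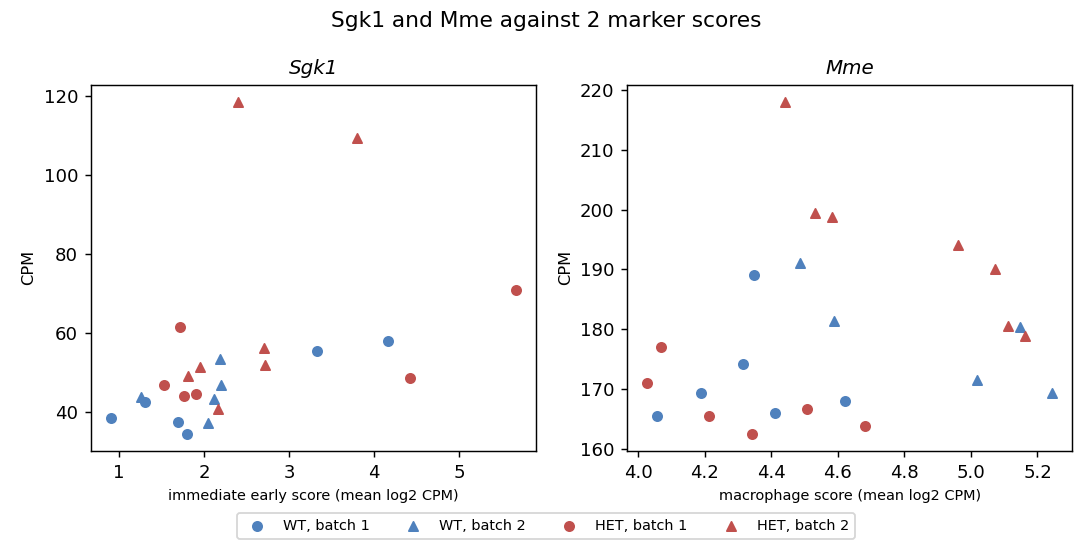
Left, Sgk1 in CPM against the immediate early score; right, Mme in CPM against the macrophage score, both scores as mean log2 CPM of their markers, 1 point per library. HET replicates 9 and 12 stand at 119 and 109 CPM of Sgk1, and in batch 2 (triangles) Mme falls as the macrophage score rises (r = -0.85).

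Fibrosis was read at the RNA level only, from the interstitial collagen score. This score is the mean log2 CPM of 8 genes: Col1a1, Col1a2, Col3a1, Col5a1, Col5a2, Col6a1, Col6a2 and Col6a3. No member belongs to it. The score ran from 5.72 to 6.31 in batch 1 and from 5.92 to 6.48 in batch 2. Its span was 1.5-fold and 1.47-fold, so only a modest range of the score was available. It rose with the macrophage score (r = 0.881 across 24 libraries with group means removed), so the relations with these scores are not independent. With batch and genotype in the model, 453 of 18339 genes followed the score (2.47%), 391 higher and 62 lower, and 0 of the 9 members did (edgeR; 713 genes and 0 members by DESeq2). Within batch 1 alone 0.238% of genes and within batch 2 alone 0.451% did, with 0 members in either. The members' median slope was -0.07, beside -0.04 over all tested genes.

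**Figure D4:**
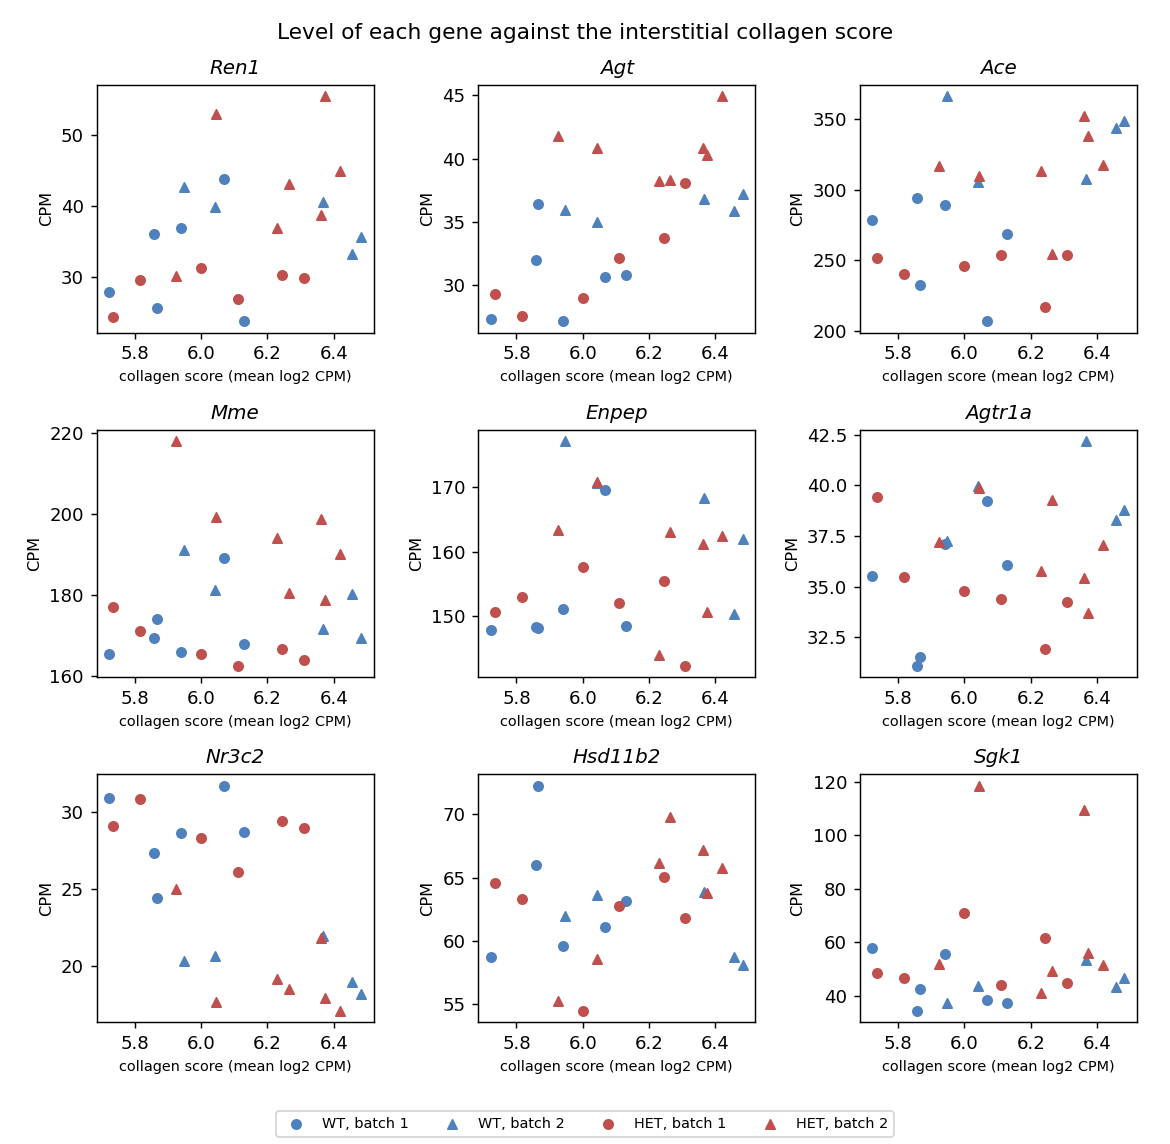
Level of each of the 9 genes in CPM against the interstitial collagen score (mean log2 CPM of 8 collagen genes) in 24 libraries; colour gives genotype and shape gives batch. Axes do not start at 0. Mme declines along the score within batch 2 (r = -0.736) and Agt climbs along it within batch 1 (r = 0.592); the other panels show no slope past the threshold either.

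Mme came closest to a relation with the collagen score. Its slope was -0.22 per log2 unit of the score (SE 0.08; edgeR unadjusted p = 0.0131, adjusted p = 0.18), and it was the only member with an unadjusted p under 0.05, which 14.5% of genes had. The Pearson r with group means removed was -0.51 (permutation p = 0.0129) and Spearman's rho -0.512 (permutation p = 0.0161). The relation lay in batch 2, with r = -0.736 and n = 12, against -0.168 in batch 1, and the pooled r went to -0.314 without HET replicate 10 and WT replicate 11, the batch 2 kidneys with the lowest collagen scores and the highest Mme of their genotype there. It thus rests in part on those libraries. The difference of the slopes between batches was not past the threshold (-0.21, adjusted p = 1, edgeR), nor was that of any gene (0%; 702 genes, 3.83%, and 0 members had an unadjusted p under 0.05). On the macrophage score the Mme slope was -0.18 with an adjusted p of 0.0654, where 5.2% of genes passed. Its r there was -0.651 (permutation p = 0.00156), rho -0.696 (permutation p = 0.00119), -0.247 in batch 1 and -0.85 in batch 2, and -0.532 without the same libraries. Enpep leaned the same way against macrophages (r = -0.468, permutation p = 0.0393; rho = -0.502, permutation p = 0.0241; -0.391 without the same libraries; -0.165 and -0.632 by batch; edgeR slope -0.13, adjusted p = 0.231) and followed the proximal tubule score (r = 0.528, permutation p = 0.0167; rho = 0.404, permutation p = 0.0674; 0.409 without WT replicates 9 and 4; 0.12 and 0.804 by batch; slope adjusted p = 0.307, where 0.66% of genes passed). Nr3c2 also had a negative r with the macrophage score, -0.455 (permutation p = 0.0412), at -0.149 and -0.6 by batch. Its rho there was -0.428 (permutation p = 0.0552). In all, 99 relations of 9 members with 11 scores were computed, and the text names only some of those with a permutation p under 0.05.

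Agt had a positive slope on the collagen score that did not pass, and a smaller one on a wider fibrosis score. On the collagen score it was 0.22 (SE 0.12, edgeR adjusted p = 0.416). Its r was 0.435 (permutation p = 0.0387) and its rho 0.453 (permutation p = 0.0391), rising to 0.526 without the same libraries as for Mme, and it was 0.592 in batch 1 and 0.233 in batch 2. The closer relation was thus in the batch whose genotypes overlapped, though the slopes of the batches did not differ past the threshold (-0.36, edgeR adjusted p = 1). In batch 1 Agt had a higher r with the tubular injury score, 0.815, and with the macrophage score, 0.625, against -0.281 and 0.0395 in batch 2. Over all mice r was 0.389 with tubular injury (permutation p = 0.0477) and rho 0.279 (permutation p = 0.181). With the macrophage score it was 0.347 (permutation p = 0.0738). With the wider score of 24 fibrosis genes the slope was 0.075 (edgeR adjusted p = 0.907), r was 0.162 (permutation p = 0.443) and rho 0.153 (permutation p = 0.49), with r = 0.222 without the same libraries and 0.198 and 0.162 by batch. As TPM, a scale on which the median gene itself had a slope of 0.25, 4 members passed (Agt, Agtr1a, Hsd11b2 and Enpep), with 6607 genes in all. Relative to that median their slopes were 0.21, 0.07, 0.12 and 0.06. The intervals of the remaining members were wide: for Ren1 the slope lay between -0.54 and 0.71 and for Sgk1 between -1.18 and 0.75, so these mice set only a loose bound on a relation. For Ace it lay between -0.35 and 0.23, for Agtr1a between -0.29 and 0.15, for Nr3c2 between -0.48 and 0.08 and for Hsd11b2 between -0.17 and 0.27.

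**Figure D5:**
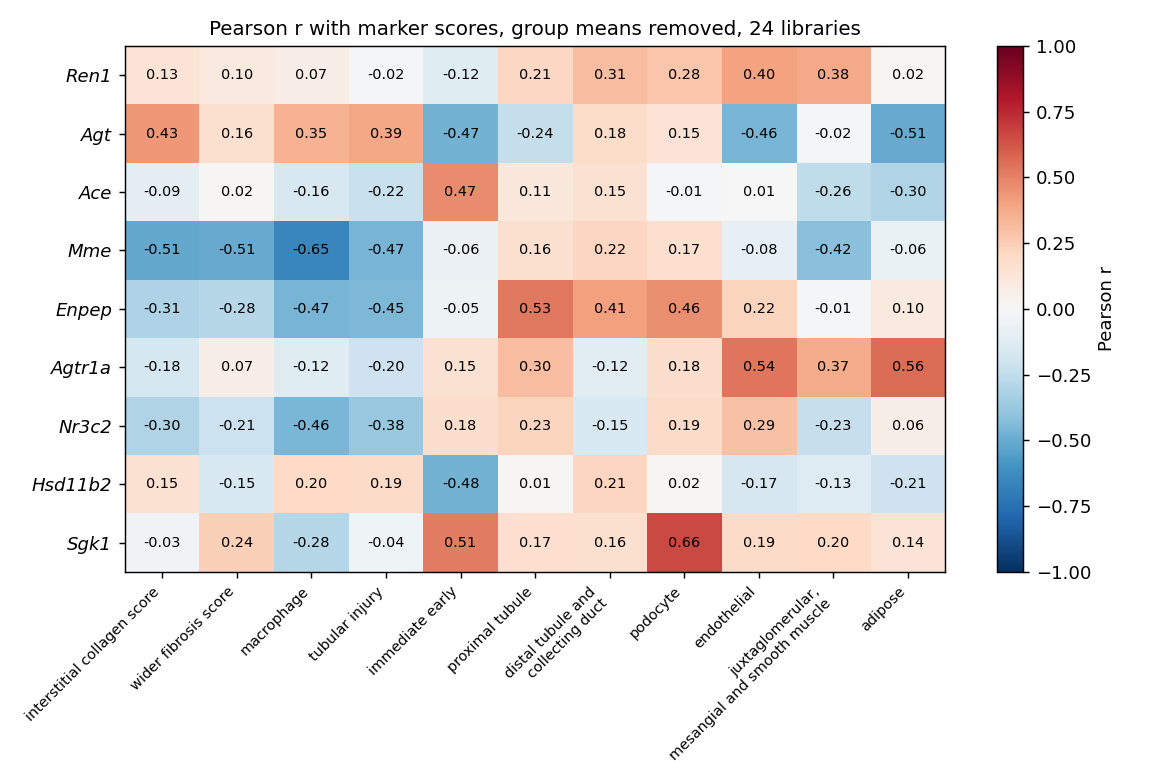
Pearson r of each of the 9 genes with 11 marker scores over 24 libraries, after the mean of each genotype and batch was removed; colour runs from -1 to 1. Mme is negative with the collagen, macrophage and tubular injury scores, Agt is positive with the collagen score, and Sgk1 is positive with the immediate early and podocyte scores.

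The 6 pathway lists hold 76 genes, some with too few counts to test. Of these, 2 passed for the collagen slope, near the share of 2.47% among all tested genes. Arrb2, which encodes an arrestin that binds activated angiotensin receptors, rose with it (slope 0.54, SE 0.14, edgeR adjusted p = 0.0307), 1 of 6 tested receptors and adaptors. Klhl3, which encodes an adaptor that marks the kinases of the thiazide-sensitive transporter for degradation, fell (slope -0.41, SE 0.11, edgeR adjusted p = 0.0307), 1 of 18 tested genes of aldosterone-sensitive sodium and potassium transport. Slc12a3, the thiazide-sensitive transporter itself, had a slope of -0.33 (adjusted p = 0.0918), and Slc26a4, the chloride and bicarbonate exchanger pendrin, also had -0.33 (adjusted p = 0.214). Of the 18 transport genes, 3 had a positive slope and the median was -0.15, beside 7752 positive of 18339 and a median of -0.04 over all genes. The scores of distal tubule markers and of collagen had r = -0.32, and the part of distal tubule content was not tested. Slc12a3, Scnn1g and Fxyd4 are in both that marker score and the transport list, so score and list are not independent. The collagen and macrophage scores had r = 0.881, and the part of macrophage content in the Arrb2 slope was not tested. Pde3a, a phosphodiesterase of renin cells, had a slope of 0.38 (adjusted p = 0.0782). Of the 15 tested renin cell genes 0 passed, 10 had a positive slope and the median was 0.25, and the part of vessel and mesangial content was not tested. Among the 14 steroid targets 0 passed, with a smallest adjusted p of 0.326 for Sgk2, a kinase close to Sgk1.

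The members did not form a block that moved together. The highest correlation between any pair, with group means removed, was 0.536 for Mme and Nr3c2, then 0.451 for Mme and Enpep, and the lowest was -0.427 for Agt and Agtr1a. Outside the 9 members, Nr3c2 was most like Lnpep (r = 0.882 over 24 libraries, place 1 of 15359), which encodes a peptidase that binds the angiotensin peptide formed from angiotensin III. Lnpep is in the list of angiotensin peptidases and processing. Agt was most like Iqgap1 (r = 0.766), Ren1 like Tmem50b (0.752), Ace like Acsm3 (0.859), Agtr1a like Nsdhl (0.852), Hsd11b2 like Adgrg1 (0.849), Mme like Mid2 (0.846) and Enpep like Cox5b (0.823). For Enpep the next were Ndufa9 (0.816) and Suclg2 (0.806), like Cox5b genes of the mitochondrion, and for Hsd11b2 Wnt7b (0.826), a collecting duct gene. With the score of 8 distal tubule and collecting duct markers, Hsd11b2 had r = 0.214 (permutation p = 0.365), at 0.234 and 0.194 by batch. The likenesses to single genes are ranks over 24 shared libraries and carry no test.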

How the data were processed

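RNA was taken from kidneys with 1 kit and libraries were made with an mRNA kit, per the labels' protocols. The tools fastp, STAR and featureCounts and the build GRCm38 (mm10) are named in the submitters' processing notes. Tool versions, annotation release and strand setting: not given in the sources used here. Expected counts, TPM and FPKM for 55487 genes were deposited by the authors. FPKM, as the authors deposited it, was not used. Of the deposited expected counts, 11.8% to 15.4% per library were not whole numbers, and all were rounded before testing. TPM, deposited by the authors, served for levels between genes and as an alternative scale with pseudocounts of 1 and 0.1.

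Genes were kept by filterByExpr of edgeR 4.0.16 (R 4.3.3) at its default minimum count of 10; the 18339 genes that passed held 99.9% of all counts. Libraries were scaled by TMM. Tests were edgeR's robust quasi-likelihood tests with batch as covariate, adjusted by Benjamini-Hochberg over all genes tested with a threshold of 0.05. Log2 CPM used a prior count of 2, and intervals are at 95%. Single genes were compared by exact permutation within a batch and by 100000 permutations over all mice; correlations were permuted within genotype and batch. DESeq2 1.42.0 and limma 3.58.1 on TPM were alternatives. Each library is a separate mouse by its label; replicate numbers follow the order of deposition and pair nothing. Coordinates are from GENCODE M21 on GRCm38.

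The members and the 6 pathway lists (76 genes) were chosen with earlier results of these data known. Pathway genes were named by smallest p: up to 3 in the collagen slope and 1 for HET against WT per list, at a mean of at least 1 CPM. For each member the 5 most like genes were ranked by Pearson r, from which the text names the first or more. Tsc22d3, Klf9, Zbtb16, Fkbp5, Usp2 and Edn1, the Sgk1 window and the slopes on marker scores other than collagen were chosen after the data were seen. For 1 pathway gene that this rule names, the result is not reported here.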

Additional observations from a re-analysis of the deposited data

Results flagged for a closer look

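In 4 of 36 groups of libraries, 1 library lay apart from the others of its genotype and batch by Dixon's criterion at 95%; chance gives about 1 in 20 groups. All were in batch 1. Ace was at 216.8 CPM in HET replicate 3, with the other 5 between 240.3 and 254.1 CPM. Hsd11b2 was at 54.46 CPM in HET replicate 5, with the others between 61.81 and 65.08 CPM. WT replicate 1, which went against its label in Nbl1, was high in 2 peptidase genes while its Ace, at 206.9 CPM, was the lowest of batch 1: Mme was at 189.0 CPM, with the others between 165.4 and 174.1 CPM, and Enpep at 169.5 CPM, with the others between 147.8 and 151.1 CPM. The part of that library in the batch 1 differences of Mme and Enpep is given by leaving it out, which moved the log2 fold change of Mme from -0.04 to -0.0080 and that of Enpep from -0.0048 to 0.028.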

How the results depend on the processing

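For HET against WT the number of members called was 0 under each of 30 alternatives over all mice, 18 in batch 1 and 17 in batch 2. Alternatives were DESeq2 size factors, the DESeq2 Wald test, no filter on low counts, TPM with pseudocounts of 1 and 0.1, each library left out, and, for batch 1 and all mice, the 3 libraries against their labels left out. For the collagen slope the count was 0 except on TPM, where it was 4 at either pseudocount. No paired analysis was possible because replicate numbers only follow the order of deposition and no label ties a mouse of one genotype to a mouse of the other.

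The signs of Agt, Sgk1, Ace, Agtr1a, Mme and Enpep over all mice held under all 30 alternatives. Over all mice Ren1 turned to -0.0082 with no filter, -0.0043 by DESeq2, -0.0463 and -0.0489 on TPM, and Hsd11b2 to -0.0386 and -0.0391 on TPM. Leaving out 1 library gave -0.038 to 0.049 for Ren1, -0.044 to 0.0034 for Nr3c2 and -0.0083 to 0.026 for Hsd11b2. In batch 1, on TPM with pseudocounts of 1 and 0.1, Agtr1a turned to 0.0449 and 0.048, Hsd11b2 to 0.0301 and 0.0312, Mme to 0.0487 and 0.0504 and Enpep to 0.070 and 0.072; Agtr1a was 0.00044 with no filter. Without the 3 libraries Ren1 was 0.026, Agtr1a 0.0031, Mme 0.0018 and Enpep 0.026. Leaving out 1 library of batch 1 gave -0.017 to 0.099 for Agt, -0.040 to 0.032 for Agtr1a, -0.032 to 0.038 for Nr3c2, -0.057 to 0.0088 for Hsd11b2 and -0.014 to 0.028 for Enpep. In batch 2, on TPM, Ren1 turned to -0.0184 and -0.0198, Hsd11b2 to -0.109 and -0.111 and Mme to -0.0479 and -0.0487, where the median of all genes was -0.113 and -0.142.

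Collagen slopes on TPM turned to 0.304 and 0.282 for Ace, 0.324 and 0.314 for Agtr1a, 0.131 and 0.142 for Nr3c2, 0.238 and 0.244 for Sgk1, 0.154 and 0.148 for Mme and 0.311 and 0.296 for Enpep, with median slopes over all genes of 0.25 and 0.29. With the wider fibrosis score of 24 genes, Ace was 0.0116, Agtr1a 0.0608, Hsd11b2 -0.125 and Sgk1 0.50. Further turns were Ren1 to -0.0444 with Col1a1 alone, Ace to 0.0052 without the 3 libraries, Agtr1a to 0.0125 with the proximal tubule score as covariate, Hsd11b2 to -0.0063 and Enpep to 0.0362 in batch 1 alone, and Ace to 0.055 in batch 2 alone. Leaving out 1 library gave -0.11 to 0.24 for Ren1, -0.095 to 0.011 for Ace, -0.097 to 0.036 for Agtr1a, -0.036 to 0.12 for Hsd11b2 and -0.40 to 0.18 for Sgk1. The cause of these turns was not tested.

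Counts over all genes moved too. For the collagen slope, 453 became 713 by DESeq2, 6607 and 6376 on TPM, 684 with Col1a1 alone, 191 with the wider score, 211 with the proximal tubule covariate, 44 and 81 within batches 1 and 2, and 256 to 579 with 1 library left out. For HET against WT, 0 became 2 without the 3 libraries. In batch 1, 0 became 1 with no filter, 1 by DESeq2 and 2 without the 3 libraries. In batch 2, 1 became 3 with no filter, 27 by DESeq2, 0 on TPM with a pseudocount of 1, and 1 to 3 with 1 library left out. Each member had at least 642 counts in a library; the effect of depth or of the number of mice on these calls was not tested.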
